A study of Caenorhabditis elegans with 58 samples.

Results

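The mir-46 and mir-47 family of Caenorhabditis elegans was measured as 4 rows of a small RNA count table, which are both arms of both hairpins. They were chosen by name, as every row called mir-46 or mir-47 once the arm ending was removed, and make up 4 of the 276 arms and 2 of the 138 hairpins in the table. For both hairpins the table marks the 3p arm as the guide strand (mir-46_3p and mir-47_3p) and the 5p arm as the star strand (mir-46_5p* and mir-47_5p*).

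A microRNA hairpin is cut by Drosha and then by Dicer into a short duplex. An Argonaute protein keeps 1 strand of that duplex, the guide, which pairs with target mRNAs mainly through its seed, and the other strand, the star, is usually lost. In C. elegans most microRNAs are loaded into the Argonautes ALG-1 and ALG-2. The mir-46 and mir-47 guide strands share their seed and are nearly identical in sequence, so the pair is treated as a family whose members can act on the same targets.

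The study asked whether slicing by ALG-1 and ALG-2 shapes microRNA levels, using animals in which the catalytic residues DEDH were edited to AEDH. Whole hermaphrodite animals gave 58 small RNA libraries in 15 groups over 3 experiments, with 4 libraries a group except 3 for L4 larvae. Experiment 1 compared wild type (strain N2) with the double AEDH mutant, which carries alg-1(cdb153) on chromosome X and alg-2(cdb155) on chromosome II (strain MCJ275), in embryos, L4 larvae and young adults. Experiment 2 used young adults of 6 genotypes. They were wild type, double AEDH, ebax-1(null) (tm2321 IV, strain CZ9907), ebax-1(null) with double AEDH (MCJ354), the Y47(mir-243bs_del) allele Y47H10A.5(cdb188) I (MCJ350), and that site deletion with double AEDH, where the allele is cdb190 (MCJ352). EBAX-1 is the substrate receptor of a ubiquitin ligase needed for target-directed microRNA degradation, and the Y47H10A.5 deletion removes a binding site for mir-243. Experiment 3 compared wild type embryos with embryos carrying the mutation in ALG-1 alone (MCJ277) or in ALG-2 alone (MCJ288). Embryos were of mixed ages, collected with hypochlorite from worms kept at 20 °C. Hatched larvae were grown for 48 h at 20 °C to L4 but for 44 h at 25 °C to young adults, so in every comparison of young adults with embryos or L4 larvae stage and temperature cannot be told apart. Each genotype came from a single strain. Whether replicates were separate cultures is not in the labels, and every p-value therefore speaks of the scatter among libraries, which could be technical.

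Total microRNA counts ran from 7078431 to 15561291 in experiment 1, from 7671859 to 21076791 in experiment 2 and from 4806008 to 6768886 in experiment 3. The smallest count of any of the 4 arms in any library was 71, for mir-47_5p* in a wild type embryo. Levels are CPM, the count of an arm scaled to the same total of microRNA counts in every library, and intervals and spreads do not correct for reads that the kit copied from 1 molecule. Stage markers matched the labels in experiment 1: let-7_5p, which appears late in larval life, averaged 45.7 CPM in wild type embryos and 12433 CPM in L4 larvae, and the embryonic mir-35_3p averaged 217624 and 2447 CPM. In embryo replicate 2 lin-4_5p, a larval microRNA, stood at 164 CPM in wild type and 90.4 CPM in double AEDH, against 5.23 to 9.67 CPM in the other 6 embryo libraries. The part of this in the embryo results was not tested beyond the values without each library. In bulk samples such as these, fewer cells expressing a microRNA and less of it per cell cannot be told apart.

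The hairpins lie on different chromosomes. In the deposited annotation, whose coordinates are those of the ce11 genome build, the mir-46 hairpin spans chromosome III bases 13660529 to 13660596 on the plus strand (68 bases). Its star arm occupies the first 22 bases, 13660529 to 13660550, and its guide arm the last 22, 13660575 to 13660596. It lies outside protein-coding genes, 3892 bases from set-16 on its left and 2804 bases from flp-15 on its right. The noncoding RNA gene ZK525.4 is annotated over it on the opposite strand (13660520 to 13660603), and whether the authors' counting used strand is not given in the sources used here. The mir-47 hairpin spans chromosome X bases 13921268 to 13921331 on the plus strand (64 bases), with the star arm at 13921268 to 13921289 and the guide arm at 13921310 to 13921331. It too lies outside protein-coding genes, 4097 bases from ekl-5 and 1312 bases from meg-2. No other hairpin of the table starts within 10 kb of either one, and the nearest is mir-4814, 67.9 kb from mir-46. Because the guides are nearly identical, the split of reads between mir-46_3p and mir-47_3p depends on how the authors placed reads with sequencing errors, and the balance between them carries that uncertainty. No library had reads that the counter listed as aligned more than once. Since the authors' alignment and counting settings are not given, that absence cannot show how reads were split between the guides.

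Both guides were most abundant after hatching, but they differed in how far they rose. In wild type embryos of experiment 1, mir-47_3p stood at 1232, 1525, 1275 and 1384 CPM in the 4 libraries. In wild type L4 larvae it stood at 8034, 8108 and 8208 CPM, and in wild type young adults at 6821, 7721, 7439.8 and 7303 CPM. Every larval and adult library lay above every embryo library, as was seen for 51.7% of arms in L4 larvae and 47.9% in young adults, with means of 1354 ± 130.4 (SD, n = 4), 8117 ± 87.4 (n = 3) and 7321 ± 376 CPM (n = 4). mir-46_3p stood at 2715, 3252, 3012 and 3575 CPM in embryos, at 7126, 7429 and 6781 CPM in L4 larvae and at 3704, 4675, 4115 and 3938 CPM in young adults. Within wild type of experiment 1 it was thus highest in L4 larvae, whose libraries overlapped with neither other stage. The share of all arms with L4 libraries wholly above young adult libraries was not counted. Embryos and young adults of mir-46_3p did not overlap either, but their ranges nearly touched.

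In edgeR's quasi-likelihood test with TMM scaling, where p-values were adjusted by the Benjamini-Hochberg method over all arms tested and called under 0.05, all 4 arms were higher in wild type L4 larvae than in embryos. The background for that comparison was 79.4% of arms called in either direction and 44.1% called higher, so a change between these stages is common among arms. The log2 difference was 2.18 (95% interval 1.87 to 2.49, adjusted p = 4.08e-11) for mir-47_3p and 0.78 (0.45 to 1.11, adjusted p = 0.00015) for mir-46_3p. The star strands followed with 1.82 for mir-47_5p* (adjusted p = 4.74e-08) and 0.59 for mir-46_5p* (adjusted p = 0.0162), the last of which was not called in 4 of the other settings tried. By spike-in totals the difference of mir-46_3p was 0.38 and not called (adjusted p = 0.107). From L4 larvae to young adults mir-46_3p fell by 0.66 (adjusted p = 0.0019), in a comparison where 42.4% of arms were called. mir-47_3p differed by -0.02 there (-0.33 to 0.28, adjusted p = 0.916). Young adult levels differed between experiments. In experiment 2 wild type young adults, also grown for 44 h at 25 °C, averaged 11615 CPM for mir-47_3p and 5284 CPM for mir-46_3p. L4 larvae were sequenced only in experiment 1, so the step from L4 to young adult is known from that experiment alone.

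Between wild type embryos and young adults 2 of the 4 arms were called, both from mir-47, where 81.9% of all arms were. mir-47_3p was higher in young adults by 2.16 (1.86 to 2.45, adjusted p = 2.13e-11) and mir-47_5p* by 1.92 (1.52 to 2.32, adjusted p = 1.09e-08). For mir-46_3p the difference was 0.12 (-0.19 to 0.43, adjusted p = 0.454), an interval well below that of mir-47_3p. Its direction depended on scaling, with 0.39 by total counts (adjusted p = 0.0097) and -0.82 by spike-in totals (adjusted p = 0.00068). The median of all arms moved by the same scalings, from 0.13 with TMM to 0.41 and -0.78. Relative to that median mir-46_3p differed by -0.02, -0.02 and -0.05 under the 3 scalings, and mir-47_3p by 2.02, 2.03 and 2.01. The guides of double AEDH animals showed the same course in experiment 1. Unlike in wild type, mir-46_5p* was not called between their embryos and L4 larvae with TMM scaling. In these animals mir-47_3p was higher by 2.25 in L4 larvae and 2.19 in young adults than in embryos (adjusted p = 2.55e-11 and 1.96e-11), where 81.9% and 84.0% of arms were called. Their mir-46_3p rose by 1.03 to L4 (adjusted p = 5.43e-06) and fell by 0.80 from L4 to young adults (adjusted p = 0.00039), where 38.7% of arms were called.

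**Figure D1:**
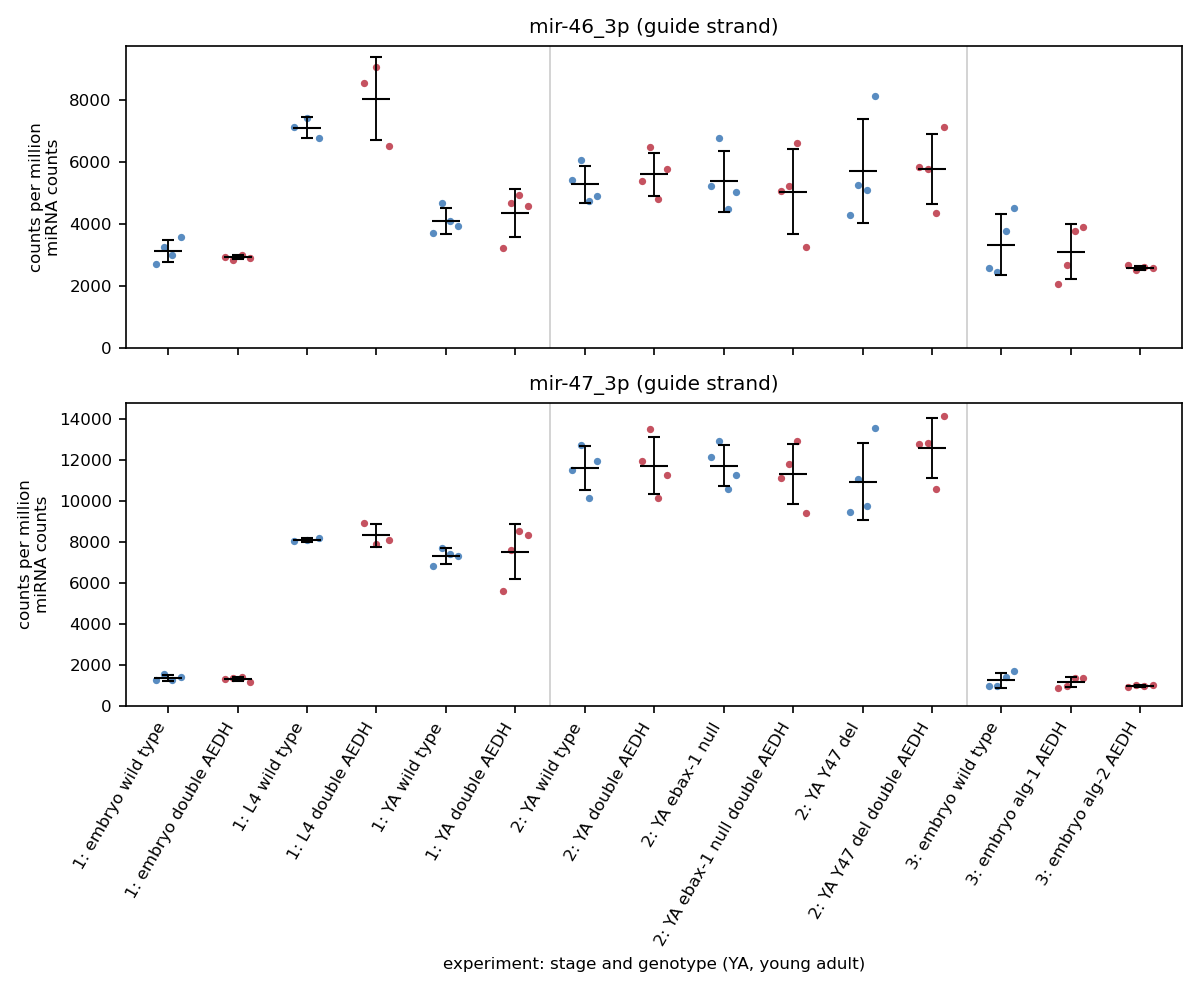
Level of each guide strand in all 58 libraries, in CPM on linear axes from 0. Points are libraries, blue without and red with an AEDH mutation, and bars give the group mean and SD. mir-47_3p reaches at most 1698 CPM in embryo libraries and is never below 5624 CPM in later ones, while mir-46_3p peaks in the L4 groups with means of 7112 and 8045 CPM.

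The balance between the guides was the opposite in embryos and young adults, which differed in temperature as well as stage. The ratio of mir-46_3p to mir-47_3p was 2.20, 2.13, 2.36 and 2.58 in the 4 wild type embryo libraries of experiment 1, and 2.73, 2.56, 2.71 and 2.66 in those of experiment 3. It was 0.887, 0.916 and 0.826 in L4 larvae, between 0.539 and 0.606 in young adults of experiment 1 and between 0.409 and 0.475 in those of experiment 2. mir-46_3p was the more abundant of the pair in all 20 embryo libraries of the 5 embryo groups and the less abundant in all 32 young adult libraries. How often other pairs of arms change places in this way was not examined, so these counts have no background beside them. Between wild type embryos and young adults of experiment 1, 81.9% of arms were called. In L4 larvae 1 library of 6, double AEDH replicate 2, was above 1, at 1.14. On the log2 scale the wild type mean of experiment 1 went from 1.21 ± 0.12 (SD, n = 4) in embryos through -0.19 ± 0.08 (n = 3) to -0.84 ± 0.08 in young adults (n = 4). Young adults lay 2.05 below embryos, with an exact two-sided permutation p = 0.0286, the smallest that 4 against 4 allows, and an adjusted p = 0.181 over the 19 comparisons of this ratio. A ratio within a library does not depend on its scaling. Together the guides made up 0.449% ± 0.046 of microRNA counts in wild type embryos of experiment 1, 1.52% ± 0.028 in L4 larvae and 1.14% ± 0.078 in young adults.

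**Figure D2:**
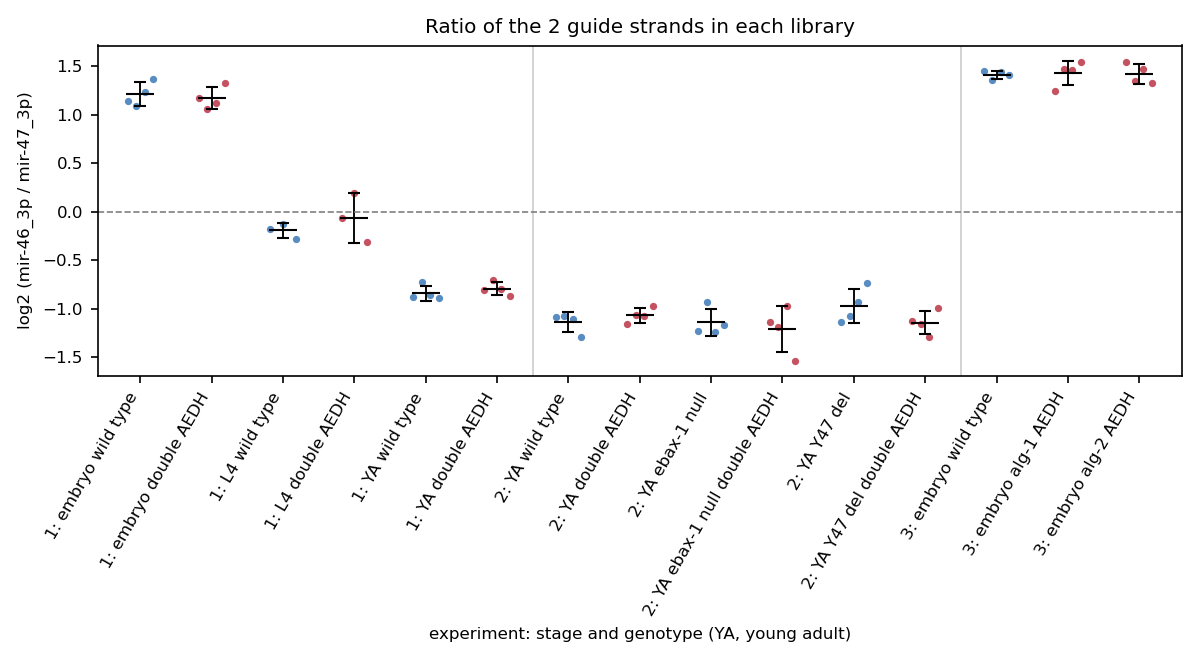
Log2 ratio of mir-46_3p to mir-47_3p in each of the 58 libraries, with group means and SDs. Blue points are groups without and red points groups with an AEDH mutation. Embryo groups lie above 1, L4 groups around 0 and young adult groups below -0.7, with mutants beside their controls.

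The hairpins also differed in how much star strand was present. In wild type animals mir-46_5p* made up 4.90% ± 0.757 (SD, n = 4) of the counts of its hairpin in embryos of experiment 1, 4.31% ± 0.317 in L4 larvae (n = 3) and 4.77% ± 0.597 in young adults (n = 4). The share was 6.20% ± 1.02 in young adults of experiment 2 and 8.28% ± 1.19 in embryos of experiment 3. mir-47_5p* made up 1.23% ± 0.209, 0.957% ± 0.056, 1.04% ± 0.065, 0.853% ± 0.229 and 1.87% ± 0.385 of its hairpin in the same groups. In every one of the 58 libraries the mir-46 share was the larger. Levels set across experiments were not tested. In double AEDH the star-to-guide ratio was lower in L4 larvae than in embryos for mir-46, by -0.79 on the log2 scale (limma, adjusted p = 0.0047), and for mir-47, by -0.52 (adjusted p = 0.0192), where 67.7% of hairpins were called. In wild type neither hairpin was called for that step, with -0.19 and -0.36 (adjusted p = 0.520 and 0.127), where 46.2% of hairpins were. The difference between the genotypes in that step was 0.60 for mir-46 when written as the AEDH effect in embryos minus that in L4 larvae (-0.06 to 1.27, adjusted p = 0.406). It did not pass, in a test that called 0.0% of hairpins.

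**Figure D3:**
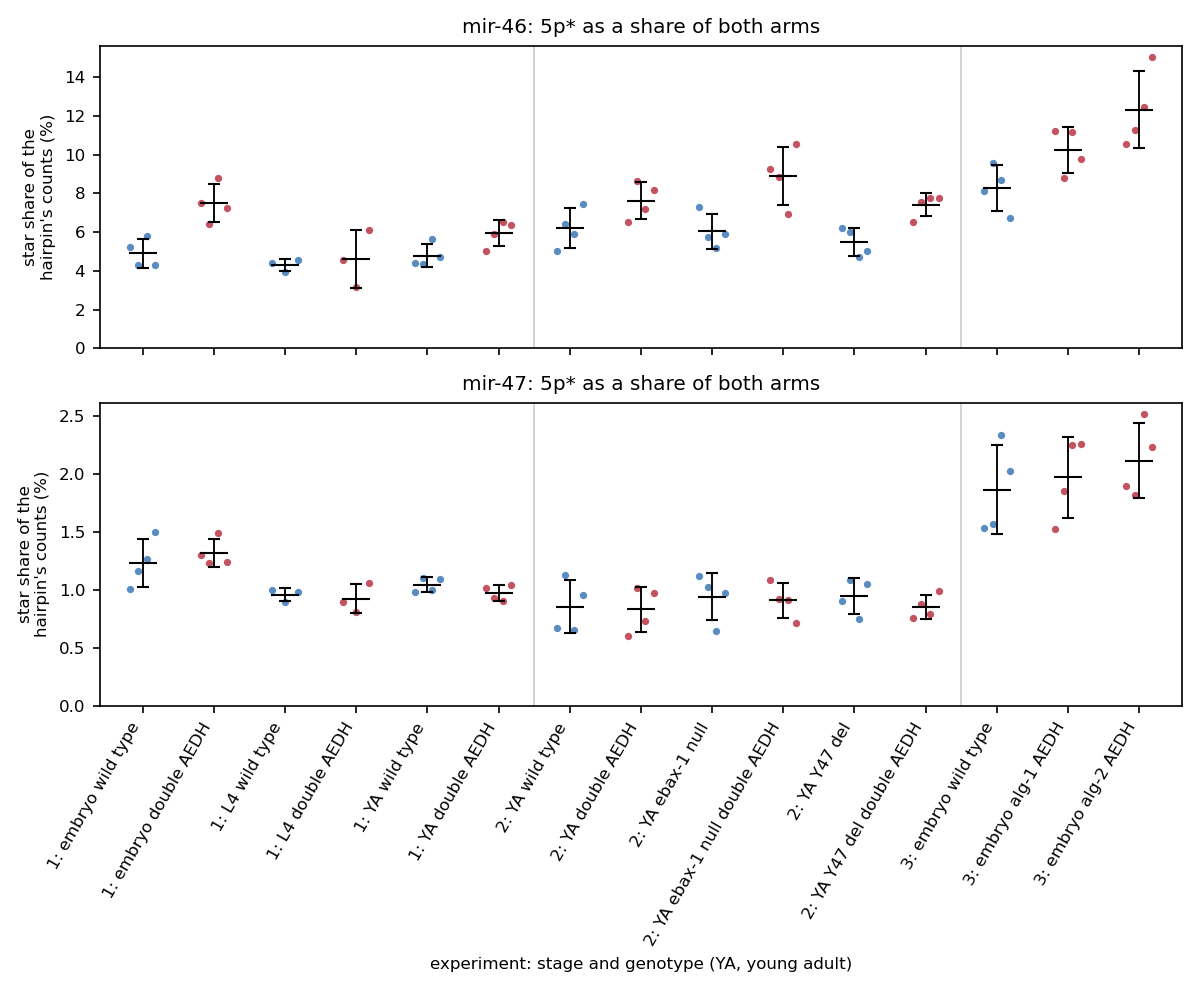
Star strand as a percentage of the counts of its hairpin in each library, for mir-46 above and mir-47 below, on linear axes from 0. Points are libraries, blue without and red with an AEDH mutation, and bars give the mean and SD. The double AEDH group mean of mir-46 exceeds that of its control in each pair, from 4.90% to 7.50% in embryos of experiment 1 for example, and for mir-47 every AEDH group overlaps its own control.

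The level of neither guide was called in any comparison of an AEDH group with its own control. Across the 6 comparisons of double AEDH with its background, which share no library, the log2 difference of mir-46_3p lay between -0.13 and 0.18 and that of mir-47_3p between -0.08 and 0.16. In embryos of experiment 1, mir-46_3p stood at 2951, 2847, 2995 and 2920.0 CPM in double AEDH against the 2715 to 3575 CPM of wild type. The intervals limit what could have been missed: for mir-47_3p in young adults of experiment 2 it ran from -0.17 to 0.22, and for mir-46_3p in young adults of experiment 1 from -0.27 to 0.44. The ratio of the guides did not pass a test in these comparisons either. Its double AEDH groups differed from their controls by between -0.17 and 0.13 on the log2 scale, and exact two-sided permutation p-values ran from 0.171 to 0.743.

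The star strand of mir-46 had a higher mean in double AEDH in all 6 of these comparisons, by 0.24 to 0.53 on the log2 scale, and was called in 2 of them. In wild type embryos of experiment 1 mir-46_5p* stood at 149.6, 145, 186 and 160.0 CPM, and in double AEDH embryos at 239, 196, 289.6 and 228 CPM. The groups did not overlap, a separation in that direction seen for 8.02% of arms. The log2 difference was 0.53 (0.25 to 0.82), with an adjusted p = 0.0296 from edgeR's quasi-likelihood test over 212 arms. It was 1 of the 4 family arms called, where 11.3% of all arms were called. Among star arms it was 1 of the 2 in the family called higher, where 18.8% of all star arms were. Counts over so few arms cannot be set apart from those shares. The call was lost when any of 6 of the 8 libraries was left out (all 4 wild type libraries, and double AEDH replicates 3 and 4), with differences from 0.44 to 0.61. With spike-in totals in place of TMM it was 0.33 (adjusted p = 0.634), where the median of all arms moved to -0.24. Same-numbered embryo libraries deviated together, and with the replicate number as a block the difference was 0.53 with an adjusted p = 0.00024.

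In young adults the 4 estimates lay between 0.44 and 0.50, and 1 of them was called. In experiment 1 mir-46_5p* stood at 169.7, 214, 246 and 194 CPM in wild type and 171, 293, 346 and 312 CPM in double AEDH, and the groups overlapped through the first mutant library. The log2 difference was 0.45 (-0.10 to 1.00, adjusted p = 0.513), in a comparison where 1.36% of arms were called. In experiment 2 wild type stood at 287, 417, 296 and 395 CPM and double AEDH at 374, 611, 374 and 514 CPM, again with overlap. That difference was 0.44 (0.11 to 0.77, adjusted p = 0.12, with 7.96% of arms called), and with the replicate block it was 0.43 and called (adjusted p = 0.0333). In the ebax-1(null) background the values were 411, 412, 246 and 316 CPM without and 518, 506, 494 and 385 CPM with double AEDH. This difference was 0.50 (0.17 to 0.83) and was called (adjusted p = 0.0436), the only one of the 4 family arms to be so, where 11.1% of arms were called and 14.7% of star arms were called higher. Leaving out any of 6 of its 8 libraries ended that call (ebax-1(null) replicates 2, 3 and 4, and ebax-1(null) double AEDH replicates 1, 2 and 3), with differences from 0.37 to 0.58, and so did the 4 other settings named under the processing. In the Y47 site deletion background the values were 285, 335, 251 and 430.4 CPM without and 409.5, 472, 366 and 600.1 CPM with double AEDH, a difference of 0.45 (0.12 to 0.78, adjusted p = 0.109, with 7.08% of arms called). The replicate block gave 0.45 with an adjusted p = 0.0295 there.

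In L4 larvae mir-46_5p* stood at 328, 306 and 324 CPM in wild type and at 406, 295 and 426 CPM in double AEDH. The second mutant library lay below all 3 controls, and the difference of 0.24 was not called (-0.14 to 0.62, adjusted p = 0.537, with 4.93% of arms called). The double AEDH effect on mir-46_5p* did not pass a test of its difference between any pair of stages, the widest being 0.35 between embryos and L4 larvae (-0.28 to 0.99, adjusted p = 0.837). Those tests called from 0.0% to 1.26% of arms, with 0.42% for embryos against L4 larvae. It did not pass between the ebax-1(null) or Y47 background and wild type either, with 0.06 (-0.41 to 0.53) and 0.01 (-0.46 to 0.48), where 0.885% and 0.0% of arms were called.

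The star strand of mir-47 gave no such difference. In wild type embryos of experiment 1 mir-47_5p* stood at 12.5, 17.9, 16.3 and 21.1 CPM and in double AEDH embryos at 17.3, 17.0, 20.9 and 14.6 CPM. The ranges lie over each other, and the log2 difference was 0.02 (-0.33 to 0.38, adjusted p = 0.946). In the 6 double AEDH comparisons it lay between -0.07 and 0.02 and was never called. The widest of these intervals, in the ebax-1(null) background, ran from -0.54 to 0.40, so a rise as large as the 0.50 of mir-46_5p* there lay outside it.

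**Figure D4:**
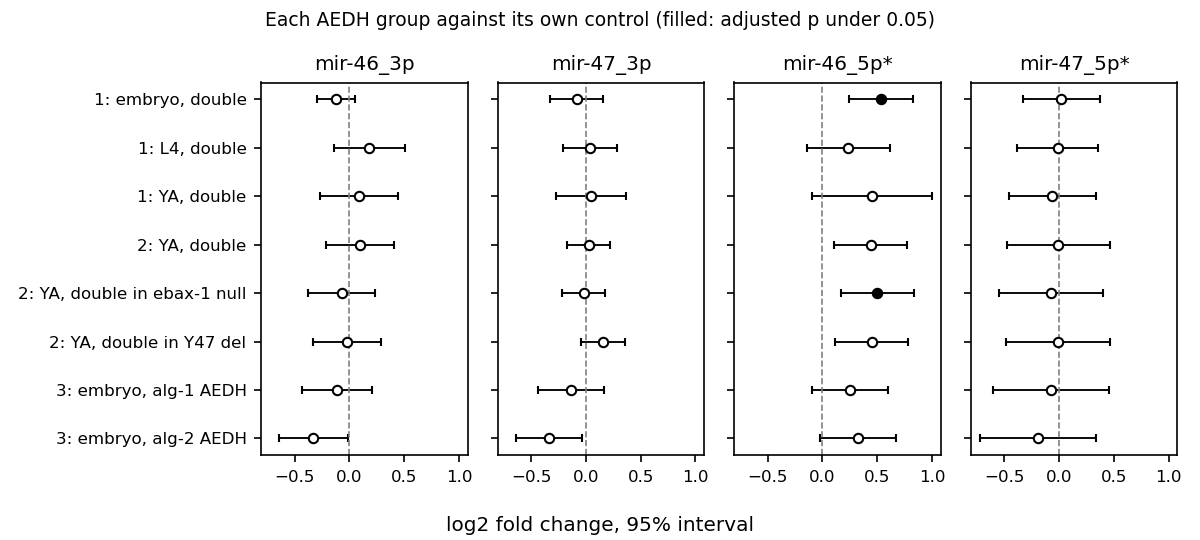
Log2 fold change of each family arm in the 8 comparisons of an AEDH group with its own control, from edgeR's quasi-likelihood test, with 95% intervals. Filled points passed an adjusted p of 0.05. Guides lie around 0 in the double mutants, mir-46_5p* lies at 0.24 to 0.53 in all double AEDH comparisons with 2 points filled, and mir-47_5p* lies at -0.07 to 0.02.

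Measured within each hairpin, the star-to-guide ratio was called for mir-46 in the same 2 comparisons and for mir-47 in none. The star share of mir-46 in embryos of experiment 1 was 5.22%, 4.28%, 5.82% and 4.28% in wild type and 7.49%, 6.44%, 8.82% and 7.24% in double AEDH, without overlap. That separation was seen for 25.6% of hairpins. limma's test on the log2 star-to-guide ratio gave 0.66 (0.22 to 1.09, adjusted p = 0.0342), 1 of 2 hairpins called where 23.3% of all hairpins were. The adjusted p rose to 0.052 when hairpins with lower counts were also tested, and the call ended without any of 5 of the 8 libraries, wild type replicates 1, 2 and 4 and double AEDH replicates 3 and 4. With the replicate block the adjusted p was 3.05e-05. In the ebax-1(null) background the share was 7.31%, 5.73%, 5.18% and 5.91% without and 9.25%, 8.85%, 6.95% and 10.6% with double AEDH. The groups overlapped through the lowest mutant library, and the log2 difference of 0.60 was called (0.25 to 0.95, adjusted p = 0.0173) where 18.5% of hairpins were. Without ebax-1(null) double AEDH replicate 4 it was 0.50 and not called. The other differences were 0.34 in young adults of experiment 1, 0.33 in those of experiment 2, 0.47 in the Y47 background and 0.05 in L4 larvae, with adjusted p-values of 0.323, 0.245, 0.0703 and 0.93, where 5.56%, 9.78%, 12.0% and 14.3% of hairpins were called. For mir-47 the 6 differences lay between -0.14 and 0.11.

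Over the 6 double AEDH comparisons mir-46_5p* was higher in all 6. Of the 73 star arms tested in all 6, 20 were higher in every one (27.4%), so the direction is one that mir-46_5p* had in common with many star strands. mir-47_5p* was higher in 1 of the 6.

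The star strands were also set against each other within each library. The ratio of mir-46_5p* to mir-47_5p* in young adults of experiment 2 was 3.68, 2.87, 4.41 and 3.41 in wild type and 5.15, 4.41, 4.99 and 4.62 in double AEDH, where the lowest mutant library lay just above the highest control. In the Y47 background it was 3.31, 2.76, 3.44 and 3.00 without and 4.21, 4.15, 4.32 and 4.24 with double AEDH. The log2 ratio was higher in double AEDH in all 6 comparisons, by 0.24 to 0.57, and higher in 23 of 23 same-numbered pairs of libraries. Of these pairs 4 came from the ebax-1(null) background, where same-numbered libraries did not deviate together (r from -0.618 to -0.246). In 4 of the 6 the groups did not overlap. How often the ratio of other pairs of star strands separates in this way was not examined, so these counts have no background beside them. The exact two-sided permutation p was 0.0286 in each of the 3 comparisons of experiment 2, the smallest possible, and 0.0571, 0.0571 and 0.1 in embryos, young adults and L4 larvae of experiment 1, where 3 against 3 larvae allow no p under 0.1. Adjusted over the 19 comparisons of this ratio the p-values were 0.0905 to 0.136, and none passed. This test was added after the values of the star strands were seen.

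Libraries of experiment 3 stood apart within groups. For both guides and mir-35_3p, replicates 3 and 4 stood apart from replicates 1 and 2 in wild type and alg-1 AEDH embryos. Both star strands separated in every group of the experiment. In alg-2 AEDH the guides and mir-35_3p did not separate, but the embryonic mir-40_3p did. It ran from 17312 to 18579 CPM in replicates 1 and 2 of alg-2 AEDH and from 16986 to 17090 CPM in replicates 3 and 4. There mir-46_5p* ran from 316 to 318 CPM in replicates 1 and 2 and from 372 to 455 CPM in replicates 3 and 4. The mir-47_5p* values ran from 17.8 to 18.3 CPM and from 23.3 to 24.4 CPM. Wild type mir-46_3p was 2586 and 2455 CPM in replicates 1 and 2 and 3795 and 4515 CPM in replicates 3 and 4, and alg-1 AEDH was 2082 and 2682, then 3773 and 3914 CPM. alg-2 AEDH stood at 2679, 2507, 2613 and 2572 CPM. The embryonic mir-35_3p averaged 155304 CPM in the first pair of wild type libraries and 96023 CPM in the second pair, against 141044 and 138829 CPM in alg-2 AEDH. The labels name no batch for these pairs. A term for the pair, added to the fits of experiment 3, changed no call of a family arm or of a star-to-guide ratio. Beyond that term and the values within each pair, the part of this difference in the results was not tested.

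In alg-2 AEDH embryos both guides were lower than in wild type by estimates that did not pass, -0.33 for mir-46_3p (-0.65 to -0.01, adjusted p = 0.204) and -0.34 for mir-47_3p (-0.64 to -0.04, adjusted p = 0.169). Within replicates 1 and 2 the log2 differences of mean CPM were 0.04 and -0.002, and within replicates 3 and 4 they were -0.68 and -0.66. The star strand mir-46_5p* stood at 229, 260.4, 360.2 and 326 CPM in wild type and 316, 318, 372 and 455 CPM in alg-2 AEDH, a difference of 0.32 (-0.02 to 0.67, adjusted p = 0.239). None of the 4 arms was called, where 4.06% of all arms were. The star share of mir-46 was 8.13%, 9.59%, 8.67% and 6.74% in wild type and 10.5%, 11.3%, 12.5% and 15.0% in alg-2 AEDH, so every mutant library lay above every control in both pairs. Such a separation was found for 35.1% of hairpins. limma's difference in the log2 star-to-guide ratio was 0.64 (0.20 to 1.08, adjusted p = 0.0263), 1 of 2 hairpins called where 41.9% were, a share that makes this common among hairpins in alg-2 AEDH. It ranged from 0.52 to 0.72 with 1 library left out and was no longer called without wild type replicates 1 or 4 or alg-2 AEDH replicates 3 or 4. For mir-47 the difference was 0.20 (-0.28 to 0.68, adjusted p = 0.488).

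In alg-1 AEDH embryos none of the 4 arms was called, where 0.508% of all arms were. mir-46_5p* stood at 264, 258, 474 and 425 CPM, with a log2 difference of 0.25 from wild type (-0.10 to 0.60, adjusted p = 0.908). The star share of mir-46 was 11.2%, 8.77%, 11.2% and 9.79%, overlapping the wild type range, and the log2 star-to-guide difference was 0.34 (-0.10 to 0.78, adjusted p = 0.326, with 10.8% of hairpins called). The difference between the single mutants was tested directly and was 0.30 for mir-46, alg-2 AEDH being higher (-0.15 to 0.74, adjusted p = 0.39, with 12.2% of hairpins called), so an effect of 1 mutation larger than that of the other was not shown. Neither arm of either hairpin was called between them, where 2.03% of arms were. The log2 guide ratio averaged 1.41, 1.43 and 1.42 in wild type, alg-1 AEDH and alg-2 AEDH.

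Loss of ebax-1 and the Y47H10A.5 site deletion, each without AEDH, gave small differences for the guides with TMM scaling. Against wild type young adults ebax-1(null) differed by -0.01 for mir-46_3p (-0.32 to 0.30) and -0.01 for mir-47_3p (-0.21 to 0.18), with adjusted p-values of 0.983 and 0.965. By spike-in totals these became 0.78 and 0.75 and mir-47_5p* became 0.93 (adjusted p = 0.0454), all 3 called, and the median of all arms moved to 0.75 under that scaling. The Y47 site deletion differed by 0.06 for mir-46_3p (-0.24 to 0.37) and -0.12 for mir-47_3p (-0.32 to 0.08). The star strands differed by -0.04 and 0.13 in ebax-1(null) and by -0.13 and 0.05 in the site deletion, and with TMM scaling none of the 4 arms was called in either, where 21.7% and 0.0% of all arms were. Neither mutation added to double AEDH moved a family arm past the threshold, with differences between -0.18 and 0.07, where 15.9% and 0.0% of arms were called.

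Across the 15 group means, where points share stages and experiments, the guides were most like different arms. Over 173 arms with enough counts, Pearson's r of the log2 level of mir-46_3p was highest with lin-4_5p (0.909), mir-237 (0.909) and mir-230_5p (0.903). lin-4, which times larval development, and mir-237 belong to another seed family. For mir-47_3p the most alike were mir-75_3p (0.993), its own star strand mir-47_5p* (0.990), mir-240_3p (0.987) and mir-48_5p (0.987), a let-7 family member. The guides correlated with each other at 0.872, which ranks mir-47_3p 12 among the arms most like mir-46_3p. The same r ranks mir-46_3p 48 among the arms most like mir-47_3p. mir-46_3p correlated with its own star at 0.291, rank 80. These are descriptions over 15 points, with no test.

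Other pairs of hairpins with related guides were set beside the family for the star-to-guide ratio in double AEDH embryos of experiment 1. That is a comparison in which mir-46 was called, and values of these pairs in the other comparisons are not given here. For mir-49 and mir-83 the log2 differences were 1.32 (adjusted p = 0.00092) and 0.03 (adjusted p = 0.98). For mir-233 and mir-87 they were 1.17 (adjusted p = 0.0055) and 0.60 (adjusted p = 0.226), and for mir-75 and mir-79 they were 1.38 (adjusted p = 0.072) and 0.01 (adjusted p = 0.98). For mir-46 and mir-47 the values were 0.66 and 0.11. The differences within and between pairs were not tested.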

How the data were processed

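Small RNA libraries from 58 samples were used as the authors' table of counts per arm. The values are estimated counts as deposited: 5.67% carry a fraction of 0.5, in both arms together. They were rounded for the edgeR and DESeq2 tests of arms and left as deposited for CPM and for all ratios. Per the submitters' processing notes, the tools were HTSeq 0.13.5, SAMtools 1.13, Bowtie2 2.4.4, cutadapt 3.4 and DESeq2, with settings not given in the sources used here. Arms follow MirGeneDB on ce11, per the file headers, and neighbouring genes come from the WBcel235 annotation. The 10 spike-ins and 5 summary rows stayed out of library sizes. Of these rows, reads on no annotated feature made up 11.9% to 44.6% of reads in a library.

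edgeR 4.0.16 (quasi-likelihood, TMM, filterByExpr with a minimum count of 10) tested arms, and limma 3.58.1 tested log2((star + 0.5)/(guide + 0.5)) for hairpins with a mean of at least 10 counts in both arms, in R 4.3.3. The 2 groups of a comparison were fitted alone in experiment 1 within stages, and all groups together for stages and for experiments 2 and 3. Ratios of arms were tested by exact permutation in scipy 1.17.1. DESeq2 1.42.0 was an alternative, beside size factors, total counts, spike-in totals (16 to 48 counts in experiment 3, so not used there), no filter, fewer groups, a replicate block and leaving out each library. Experiment 3 was also fitted with a term that set its first pair of replicates against its second pair. The scripts were tested on simulated data.

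Pairing was judged from correlations of deviations from group means: every same-numbered pair exceeded 0.1 in 9 of 19 comparisons, among them double AEDH with wild type within each stage and in experiment 2, and the Y47 pair. In the ebax-1(null) pair they ran from -0.618 to -0.246.

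The members and lists were chosen with earlier results of these data known. All 4 arms are named, with the 3 other arms most like each guide; a rule on shared seeds was not run, and sequences were not used here. Related pairs of hairpins were named from background knowledge.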

Additional observations from a re-analysis of the deposited data

Results flagged for a closer look

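In a group of 4 libraries, 1 lay far from the rest by Dixon's criterion. The log2 ratio of mir-46_3p to mir-47_3p was -1.29 in replicate 4 of the experiment 2 wild type young adults, the lowest of that group, with a gap of 0.852 of the range of the group. Of 91 groups of values examined this was the 1 that stood out, and chance alone marks about 1 in 20.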

How the results depend on the processing

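Values are log2 differences with adjusted p over all arms or hairpins. The ratios of arms are an exception: their p-values were adjusted over 19 comparisons, and under other settings or with 1 library left out they were not adjusted. Of 828 values under another setting for 182 results, 797 stayed on the same side of the threshold, 12 lost a call, 15 gained one and 4 turned direction with a call. Among the 797, 69 changed sign without a call. The 797 include the ratios of arms under sign flips of same-numbered pairs. Those could not change side, because no ratio was called and 4 pairs allow no p under 0.125. mir-46_5p* in double AEDH embryos of experiment 1 was 0.57 by total counts and 0.33 by spike-in totals, neither called. In the ebax-1(null) background it was 0.46 by total counts, 0.23 by spike-in totals, 0.45 with no filter and 0.50 with only the 2 groups, none called. With the replicate block it became called in experiment 2 (0.43) and in the Y47 background (0.45, and 0.46 with DESeq2). The block ended no call named here. The mir-46 star-to-guide ratio in embryos was 0.66 with hairpins of lower counts, no longer called.

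For wild type stages, from embryo to L4 mir-46_3p was 0.38 by spike-in totals, and mir-46_5p* was 0.46 by DESeq2 size factors, 0.18 by spike-in totals, 0.29 with no filter and 0.26 with only the 2 groups, none called. From L4 to young adult mir-46_5p* became called at -0.54 by size factors and by DESeq2, -0.63 by total counts, -1.05 by spike-in totals, -0.51 with the block and -0.52 with only the 2 groups, and mir-47_3p at -0.55 by spike-in totals. From embryo to young adult mir-46_3p became 0.39 by total counts and turned to -0.82 by spike-in totals, as mir-46_5p* did to -0.87. In ebax-1(null) against wild type, spike-in totals turned mir-46_3p to 0.78 and mir-47_3p to 0.75, and mir-47_5p* became called at 0.93. In double AEDH, mir-46_5p* became called at 0.66 from embryo to L4 by total counts and at -0.62 from embryo to young adult by spike-in totals, and mir-46_3p at 0.57 from embryo to young adult by total counts. The causes were not tested; medians of all arms moved with the same scalings.

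With 1 library left out, 1594 of 1624 values kept their side, 28 lost a call and 2 gained one. The 1594 include the exact permutation tests of the ratios of arms, which could not change side. None of those was called with all libraries, and 4 libraries against 3 allow no p under 0.0571. mir-46_5p* ranged from 0.44 to 0.61 in embryos, from 0.37 to 0.58 in the ebax-1(null) background, and from -0.65 to -0.40 from L4 to young adult. The mir-46 star-to-guide ratio ranged from 0.57 to 0.75 in embryos, from 0.50 to 0.72 in the ebax-1(null) background and from 0.52 to 0.72 in alg-2 AEDH. Low counts limit mir-47_5p*, whose embryo libraries of experiment 3 hold from 71 to 223 counts.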
